A study of Mus musculus with 10 samples.

Results

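Short m6A peaks at the 3' ends of genes are 4335 of the 21195 peaks mapped in cultured mouse hypothalamic neural progenitor cells, or 20.5% (95% interval 19.9 to 21.0). A peak was taken if it spanned at most 1000 bases, overlapped exactly 1 RefSeq gene span (build GRCm38.p6), that gene was protein-coding, and the midpoint of the peak lay past 90% of the span along the strand of the peak. The 4335 peaks lay in 3375 of 21900 protein-coding genes (15.4%). They made up 49.6% of the 8742 short peaks that overlap a single protein-coding gene, beside 3353 in the interior of the gene, 961 in the first 10% of it and 93 with a midpoint outside the span. A further 2067 peaks past 90% of the span were longer than 1000 bases and were not taken.

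The series holds 10 libraries: 4 m6A immunoprecipitation (IP) libraries of Mettl14 knockout cells, 4 of control cells, and 1 input library, the RNA before immunoprecipitation, of each genotype. All cells were neural progenitors taken from the hypothalamus of E14.5 mouse embryos that carried floxed Mettl14, grown with 20 ng/ml FGF2 and 20 ng/ml EGF. The knockout cells had received a lentivirus coding for EGFP with Cre recombinase and the control cells one coding for EGFP alone, and EGFP-positive cells were sorted after 72 h, so the control cells too are floxed, infected and sorted. The number of embryos pooled and whether replicates were separate cultures are not given in the labels. The peak table has 1 pooled IP and 1 pooled input count per peak and no column for a genotype or a library, so every value below is a pooled one, without SD, and no comparison of knockout with control was made.

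N6-methyladenosine is the most common internal mark of messenger RNA. It is written by a methyltransferase complex with Mettl3 and Mettl14 at its core, mostly at adenosines in a sequence context such as GGACT, and read by proteins of the YTH family that shorten the life of the marked RNA or change its translation. In mammals many sites lie near the stop codon and in the 3' untranslated region. In neural progenitors the mark is known to affect how long cells stay in the cell cycle before they differentiate.

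The sequence under most of these peaks was not analysed here, since only 300-base windows around annotated gene starts (250 bases before and 50 after, RefSeq, GRCm38.p6) were at hand. At least 75 bases of 22 of the 4335 peaks lay in such a window of their own gene. In 1 of them, a 75-base peak of Pde4b, the whole peak was covered on the strand of the gene, because a Pde4b transcript is annotated to start there. Pde4b encodes a phosphodiesterase that breaks down cyclic AMP. This peak (chr4:102589773-102589847, plus strand) had 21978 IP and 2568 input reads, and both 30-base stretches around its GGACT motifs are shown, with the motif in capitals, because they carry the letters that the methyltransferase complex prefers.
Pde4b, bases 102589773 to 102589802: cagagttGGACTaatctagggtggaaaccc
Pde4b, bases 102589803 to 102589832: ctccgggcaccaGGACTgttcctaactgaa
GGACT was searched on the strand of the peak only, which is that of the RNA. Of 32851 start windows, 6.84% held GGACT in the same 75 positions and 0.280% held it at least 2 times. The read ratio of this Pde4b peak, 8.56 IP reads per input read (95% interval 8.22 to 8.92), was the third highest among the 3438 peaks with at least 100 input reads. A match of letters is a description and does not show which base was methylated.

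Over the 4335 peaks together, 10699498 IP and 4630522 input reads were counted, which is 14.8% of the IP and 17.4% of the input reads of all peaks. A peak had a median of 700 IP reads (27 to 127459) and 427 input reads (1 to 47733). Input reads depend on how much RNA of the gene the cells held, and in pooled cells fewer cells with the RNA and less RNA per cell cannot be told apart. Enrichment below is the log2 fold change from the authors' deposited table, IP against input. Its median in the authors' deposited table was 2.82 (7.08-fold), with quartiles of 2.24 and 3.58 and an SD of 0.959 across peaks. The median ratio of IP to input reads, with 0.5 reads added to both, was 1.98. Enrichment is therefore not the plain ratio of the deposited reads, by a normalization not given in the sources used here. Both measures are given below because they order parts of the gene differently. The adjusted p in the authors' deposited table was under 0.05 for 4334 of the 4335 peaks, against 100% of all peaks to 3 digits, so this threshold does not separate peaks within the table.

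**Figure D1:**
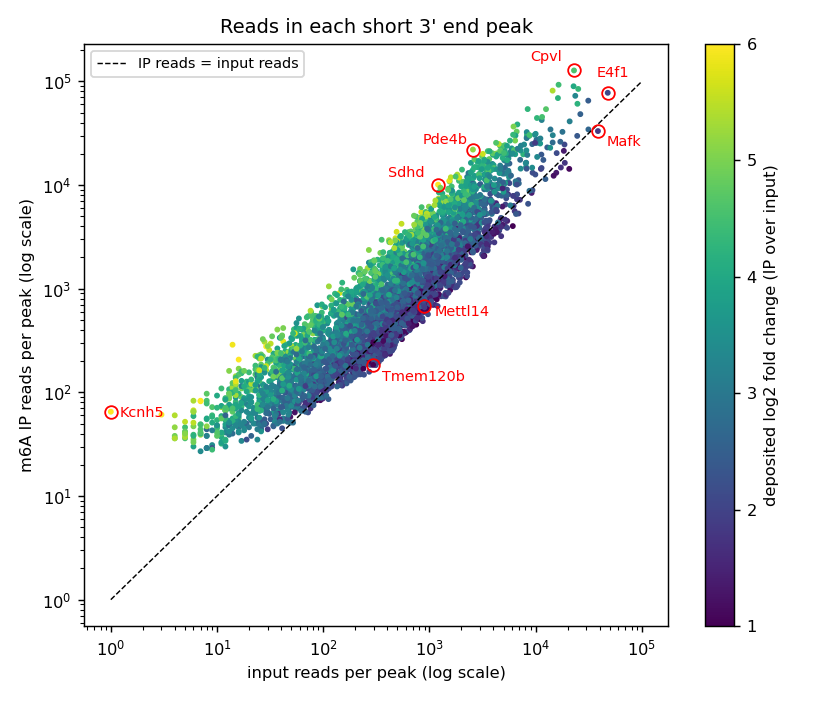
IP reads against input reads of each of the 4335 short 3' end peaks, both on log scales, with the authors' log2 fold change as colour (values above the end of the scale take its last colour) and a dashed line where both counts are equal. Circled peaks are named in the text. Most peaks lie above the line, Mettl14, Mafk and Tmem120b lie under it, and Kcnh5 stands alone at 1 input read.

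The peaks with the highest deposited fold changes and at least 100 input reads lay in genes of varied function. Sdhd, a membrane anchor subunit of succinate dehydrogenase in the respiratory chain, led with 10079 IP and 1206 input reads, or 8.36 IP reads per input read (95% interval 7.87 to 8.88), and stood at 6.03 in the authors' deposited table. Its peak spans 150 bases (chr9:50596357-50596506, minus strand) and its midpoint lies 92 bases from the annotated gene end. Cd302, a C-type lectin receptor, had 11002 IP and 1541 input reads and a log2 enrichment of 5.81 in the authors' deposited table. Epha5, a receptor of the ephrin family that guides axons, had 5484 IP and 838 input reads and 5.66 in the authors' deposited table. Read ratios of the first 10 peaks ran from 6.17 to 8.36 before any normalization. Stxbp4, a syntaxin-binding protein, and Adam10, the protease that cleaves Notch receptors, followed with 5.65 and 5.63 in the authors' deposited table. The Adam10 peak rested on 910 IP and 143 input reads. AI987944, the zinc finger gene Zfp263, the calcineurin subunit Ppp3cb, the Arf GTPase regulator Smap1 and the sodium-calcium exchanger Slc8a3 completed the first 10, with log2 enrichments from 5.62 in AI987944 to 5.5 in Slc8a3 in the authors' deposited table. In all 10 the peak lay on the strand of its gene.

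By read ratio another set of peaks led. Only 3 of those 10, Sdhd, Smap1 and Slc8a3, were also among the 10 highest by ratio. The highest ratio was that of Rgs7bp, an anchor for regulators of G protein signalling, with 1053 IP and 113 input reads. Next came Eif4enif1, a protein that binds the cap-binding factor eIF4E, with 2362 IP and 269 input reads. The difference between the deposited log2 enrichment and the log2 read ratio, called the offset here, was 2.60 to 2.98 for the 10 peaks with the highest fold changes, against a median of 1.84 over all 4335. Dagla, an enzyme that makes an endocannabinoid, shows the other case. It had 1535 IP and 192 input reads, a ratio of 7.99, an offset of 0.735 and a log2 enrichment of 3.73 in the authors' deposited table. These genes were picked by ratio after their values were seen.

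Without a minimum of input reads the highest log2 enrichment in the authors' deposited table was 7.40 for Kcnh5, a voltage-gated potassium channel, on 65 IP reads and 1 input read (ratio 65.0, 95% interval 11.3 to 2606). Btbd8, the serotonin receptor Htr2a, Mfsd4b1 and Zfp974 followed with 6.26 to 6.14 in the authors' deposited table on 3 to 16 input reads. The interval of each is wide, so their order is not known. No peak of the set had 0 input reads, and 189 had under 20.

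At the low end, several peaks held fewer IP than input reads. Tmem120b had the lowest log2 enrichment of the set, 0.42 in the authors' deposited table, on 184 IP and 295 input reads, and its adjusted p of 0.0787 was the only one not under 0.05. The endocytic recycling protein Ehd1 had 247 IP and 413 input reads, and Samm50, which builds outer membrane proteins into mitochondria, had 450 IP and 752 input reads. Their log2 enrichments were 0.47 and 0.55 in the authors' deposited table. The muscle kinase Speg (305 IP and 375 input reads) and Pnkd (4016 IP and 6094 input reads) stood at 0.66 and 0.71 in the authors' deposited table. Fewer IP than input reads were present in 672 of the 4335 peaks (15.5%), against 11.3% of all peaks and 13.7% of short single-gene peaks. A log2 enrichment of at least 4 in the authors' deposited table was present in 683 (15.8%), against 19.8% of all peaks and 14.8% of short single-gene peaks. All peaks include those of any length, and the short single-gene peaks include the 4335. Intervals of read ratios treat the pooled values as sums of reads, which the headers do not state, and cover counting error only. Depth was not corrected in these reads, so no ratio under 1 is evidence of depletion.

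The targeted gene, Mettl14, had 1 short 3' end peak (chr3:123369647-123369771, minus strand). It held 688 IP and 886 input reads, a ratio of 0.777 (95% interval 0.702 to 0.859), and its log2 enrichment in the authors' deposited table was 1.49. Its midpoint lay 1415 bases from the gene end. Its other short peak lay in the interior (chr3:123371222-123371496), with 1265 IP and 367 input reads and a log2 enrichment of 4.41 in the authors' deposited table. Since reads of both genotypes may be pooled, neither peak checks the knockout.

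The deepest peaks were compared per kb of peak. Cpvl, a serine carboxypeptidase, had 127459 IP and 22971 input reads in 100 bases, or 1274590 IP and 229710 input reads per kb, and a log2 enrichment of 4.59 in the authors' deposited table. Tcf7l2, a transcription factor at the end of the Wnt pathway, had 84500 IP and 25168 input reads in 100 bases, or 845000 and 251680 per kb, and 4.34 in the authors' deposited table. Tmem25 and Gm38457 had 742056 and 597753 IP reads per kb, and the protocadherin Pcdh9 had 85665 in a longer peak of 950 bases. Large read counts thus did not go with one level of enrichment. E4f1, a zinc finger regulator of p53, had the most input reads, with 77580 IP and 47733 input reads and a log2 enrichment of 2.09 in the authors' deposited table. Mafk, a small Maf transcription factor, had fewer IP than input reads, 33156 and 38596, at 1.82 in the authors' deposited table. Eef1a1, the translation elongation factor, had 34380 IP and 31388 input reads and 2.63 in the authors' deposited table.

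The peaks were short in steps of 25 bases: 88.6% had a length that is a multiple of 25, from 75 bases up, with a median of 300. Their distance to the annotated gene end followed the span of the gene, since the rule scales with it. Over all peaks the median distance from midpoint to gene end was 797 bases, 55.3% lay within 1000 bases, and 289 reached past the end. In genes of at most 5000 bases the median distance was 138 bases (151 peaks), and in genes over 100000 bases it was 2024 bases (1106 peaks), of which 32.5% lay within 1000 bases. Whether a peak lay in a coding exon, an intron or the 3' untranslated region was not analysed here.

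**Figure D2:**
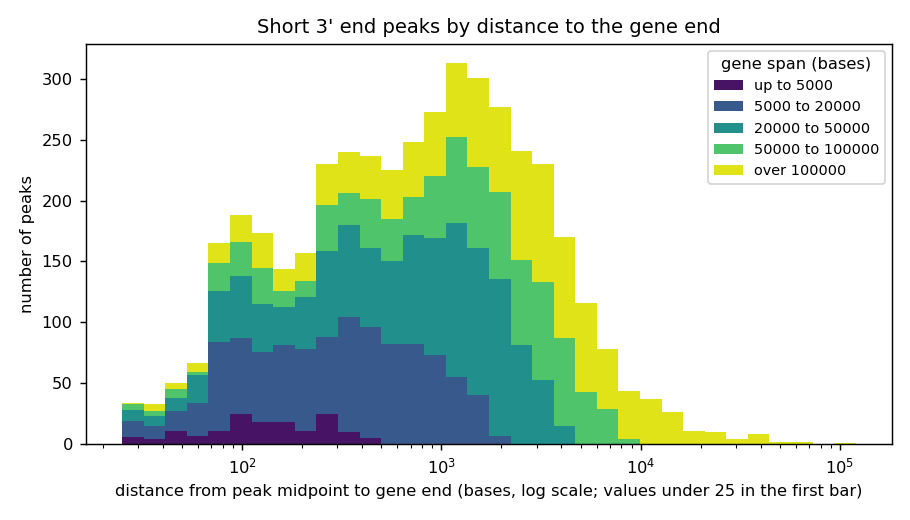
Number of short 3' end peaks by the distance from the peak's midpoint to the annotated end of the gene (bases, log scale), stacked by gene span. Genes over 100000 bases hold the far tail, and genes up to 5000 bases are confined to the left by the rule, which scales with the span.

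Enrichment changed little with this distance. The 1068 peaks within 250 bases of the gene end had a median log2 enrichment of 2.68 in the authors' deposited table and a median ratio of 1.77. The 658 peaks between 250 and 500 bases had 2.95 in the authors' deposited table and 2.16, and the 301 peaks beyond 5000 bases had 2.97 and 2.19. The classes overlap widely, with quartiles of 2.22 and 3.45 in the nearest class and of 2.28 and 3.70 in the farthest. Across the 4335 peaks Spearman's correlation of the deposited log2 enrichment was 0.039 with distance, 0.069 with gene span and 0.148 with peak length. Peaks of 1 gene share RNA and library, so these correlations are descriptions.

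Longer peaks had somewhat higher values. The 1209 peaks over 500 bases had a median log2 enrichment of 3.07 in the authors' deposited table and a ratio of 2.59, and the 648 peaks of at most 100 bases had 2.62 and 1.76. Depth went the other way: 189 peaks with under 20 input reads had a median of 4.25, and 1471 peaks with at least 100 and under 500 input reads had 2.56 in the authors' deposited table. Only called peaks are listed, and at few input reads a peak with a low ratio has few reads in all, so these classes are not random samples of the RNA. Above 5000 input reads the median was 3.05 (140 peaks) in the authors' deposited table.

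Most genes had a single short 3' end peak. There were 2651 such genes, 560 had 2 peaks, 125 had 3, 26 had 4 and 13 had 5 or more. Neighbouring peaks of a gene were often close. Of 943 neighbouring pairs on 1 gene and strand, 328 lay at most 100 bases apart, and the smallest gap, 25 bases, occurred 147 times. The median difference in log2 enrichment between neighbours in the authors' deposited table was 0.58 for pairs at most 100 bases apart and 0.68 for the 217 pairs over 1000 bases apart, without regard to sign. Close and distant neighbours thus differed by nearly the same amount. Close neighbours may share fragments and were not counted as independent.

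Zfp469, whose human counterpart is mutated in a disease of thin corneas, had the most, 17 peaks (chr8:122260749-122271498, plus strand). They held 158 to 844 IP and 27 to 171 input reads each, and their log2 enrichments in the authors' deposited table ran from 2.68 to 3.37. Their read ratios ran from 2.92 to 6.15. Nhs, named for Nance-Horan syndrome in humans, had 9 peaks with log2 enrichments from 2.49 to 4.44 in the authors' deposited table, and 53 to 10991 IP and 35 to 1896 input reads. By the deposited value the 2 deepest Nhs peaks were also its 2 highest: 10991 IP and 1896 input reads at 4.44, and 4262 IP and 1822 input reads at 4.2 in the authors' deposited table. By read ratio the first still led at 5.80, but the second, at 2.34, lay under several shallower ones, such as a peak with 98 input reads at 4.32. Asxl3, a partner of the Polycomb deubiquitinase, had 7 peaks at 3.55 to 5.07 in the authors' deposited table, with 52 to 161 IP reads and no more than 21 input reads each. Zfhx4, a zinc finger homeobox factor, had 7 peaks at 2.15 to 4.77 in the authors' deposited table. The Zfhx4 peak nearest to the gene end had 1158 IP and 1534 input reads and stood at 2.51, and the next one had 3170 IP and 817 input reads and stood at 4.77 in the authors' deposited table. Genes with 5 peaks were Aak1, Ank2, Gli2, Gnaq, Hivep3, Kmt2a, Meis1, Thrb and Tmem104. Among them the highest median belonged to Thrb, a thyroid hormone receptor (4.01), and the lowest to Tmem104 (2.38), with Kmt2a, a histone methyltransferase, at 2.47 in the authors' deposited table.

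**Figure D3:**
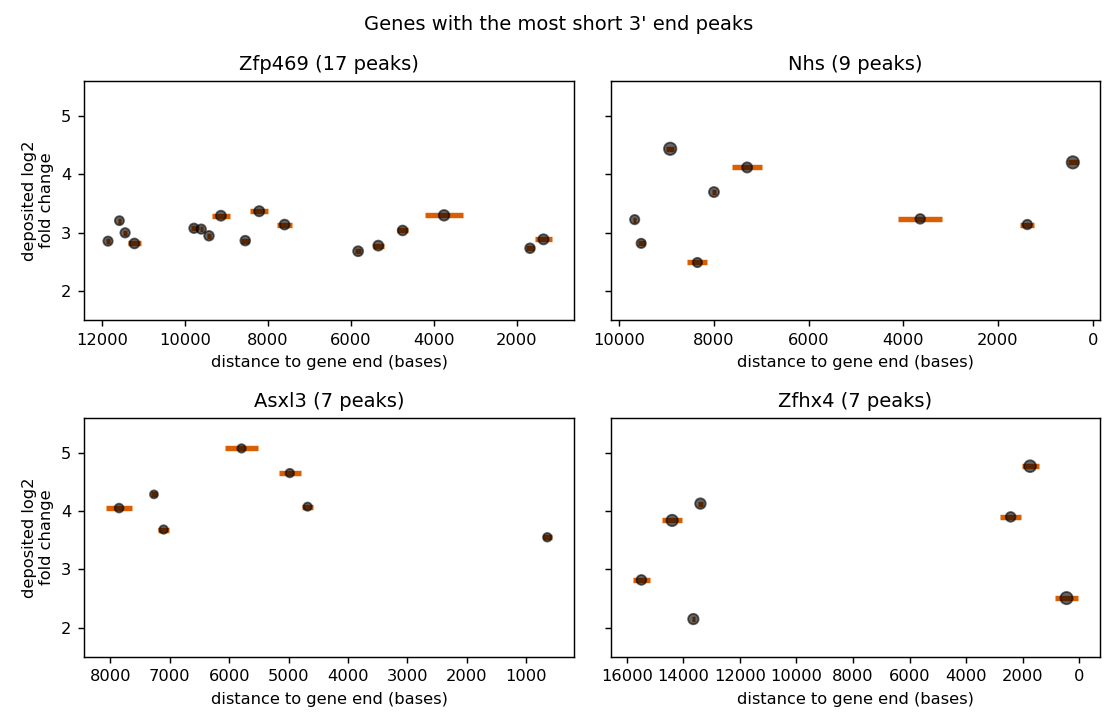
Authors' log2 fold change of each short 3' end peak of the 4 genes with the most such peaks, against distance to the gene end in bases (end at the right). Bars show the length of a peak and larger dots more input reads. The 17 Zfp469 peaks lie between 2.68 and 3.37, and the 7 Zfhx4 peaks spread from 2.15 to 4.77.

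Seen from the deposited gene identifiers, 3393 identifier entries had a short 3' end peak, and for 1196 of them it was the single peak in the whole table. A further 275 had several peaks, all of them short 3' end peaks. In 1922 entries other peaks were present too, and the highest log2 enrichment in the authors' deposited table belonged to the 3' end peak in 783 and to another peak in 1139. Where an entry had exactly 1 of each (801 entries), the 3' end peak was the higher in 390 and the other in 411. By read ratio these counts were 361 and 440. The other peak was thus the higher more often in each count, by little in the deposited value of entries with 1 of each. Other peaks could be of any length. In the 1922 entries the highest of each kind was compared, over unequal numbers of peaks.

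Set beside short peaks elsewhere in the gene, the 3' end peaks had a median log2 enrichment of 2.82 in the authors' deposited table, the 3353 interior peaks 2.83 and the 961 5' end peaks 2.47. By read ratio the medians were 1.98 at the 3' end, 2.16 in the interior and 2.35 at the 5' end, so the 5' end was lowest by the deposited value and highest by reads. The interior lay above the 3' end by reads and hardly differed from it by the deposited value. Among peaks with at least 100 input reads the deposited medians were 2.64 at the 3' end and 2.61 in the interior, and the ratios 1.76 and 1.86. The offset between both measures had a median of 1.84 at the 3' end, 1.77 in the interior and 1.53 at the 5' end, and the SD across peaks was 0.527, 0.573 and 0.658. Peaks with a log2 enrichment of at least 4 in the authors' deposited table were 15.8%, 15.4% and 9.26% of these 3 sets. Input depth per length had medians of 1432, 1140 and 1515 input reads per kb. There are no replicate values, so none of these differences was tested, and quartile ranges overlap in each case.

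**Figure D4:**
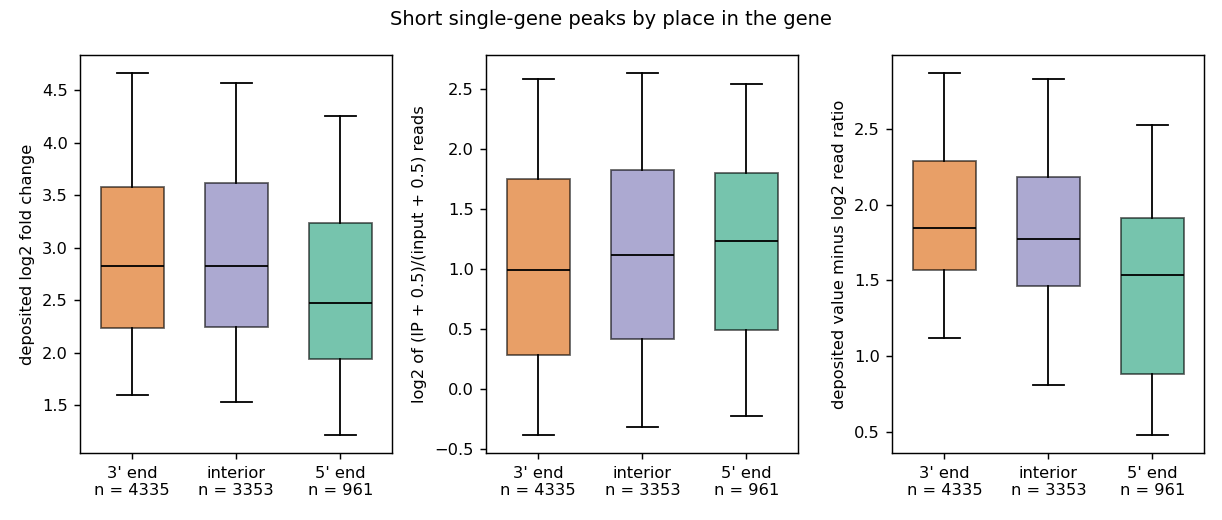
Short single-gene peaks at the 3' end, in the interior and at the 5' end: the authors' log2 fold change, the log2 ratio of IP to input reads, and the first minus the second. Boxes span the quartiles with the median as a line, and whiskers reach the 5 and 95 percentiles over peaks. The 5' end has the lowest median in the first panel and the highest in the second.

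Both measures were also set side by side within genes. A short peak at both ends on the same strand was present in 241 genes after peaks on the strand opposite to the gene were left out, and the strongest peak of each end was compared. The median difference, 3' minus 5', was 0.50 in the log2 enrichment of the authors' deposited table (quartiles -0.24 and 1.47), with the 3' value higher in 163 genes and the 5' value in 78. By the log2 of the read ratio the median difference was -0.033, with the 3' value higher in 118 genes and the 5' value in 123. In the 158 genes with a single peak at each end the median differences were 0.43 and -0.27. In the 185 genes with at least 100 input reads at both ends they were 0.61 and 0.063, with the read ratio higher at the 3' end in 96 genes and at the 5' end in 89. By reads, the sign of the difference thus changed with the genes taken. In 604 genes the strongest 3' end peak was set against the strongest short interior peak in the same way. The median difference, 3' minus interior, was 0.19 in the deposited log2 enrichment, with the 3' value higher in 346 genes and the interior value in 258. By the log2 read ratio it was 0.012, with 305 and 299 genes. In the 363 genes with a single peak in each place the medians were 0.16 and -0.043. Which of the measures is nearer to the methylation of the RNA was not tested.

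Large differences at single genes were present in both measures. In Zbtb18, a repressor that guides neuron formation, the 3' peak had 4147 IP and 718 input reads and the 5' peak 115 IP and 106 input reads, with log2 enrichments of 5.27 at the 3' end and 0.72 at the 5' end in the authors' deposited table. The ratios were 5.78 (95% interval 5.33 to 6.26) and 1.08 (0.826 to 1.43). In the transcription factor Creb5 the 3' peak had 23723 IP and 4882 input reads and the 5' peak 290 IP and 303 input reads. The collagen Col25a1, the ubiquitin ligase Trim8 and Mn1, a regulator of transcription, followed with 3' ratios of 4.37, 4.42 and 7.24 and 5' ratios of 1.21, 0.958 and 1.35. The opposite was seen in Irf3, a factor of the interferon response, where the 3' peak had 3052 IP and 2859 input reads and the 5' peak 8776 IP and 1829 input reads, with log2 enrichments of 1.36 and 3.99 in the authors' deposited table. Gphn, which encodes the synaptic scaffold gephyrin, had 426 IP and 498 input reads in its 3' peak and 3558 IP and 800 input reads in its 5' peak. Adgrb2, Pik3c3 and Isy1 had 3' ratios of 1.17, 1.18 and 0.829 and 5' ratios of 4.45, 4.65 and 2.88. These 10 genes were picked as the 5 largest differences each way among 185 genes. That their counting intervals did not overlap between the ends follows largely from this choice, and says nothing about the other genes.

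**Figure D5:**
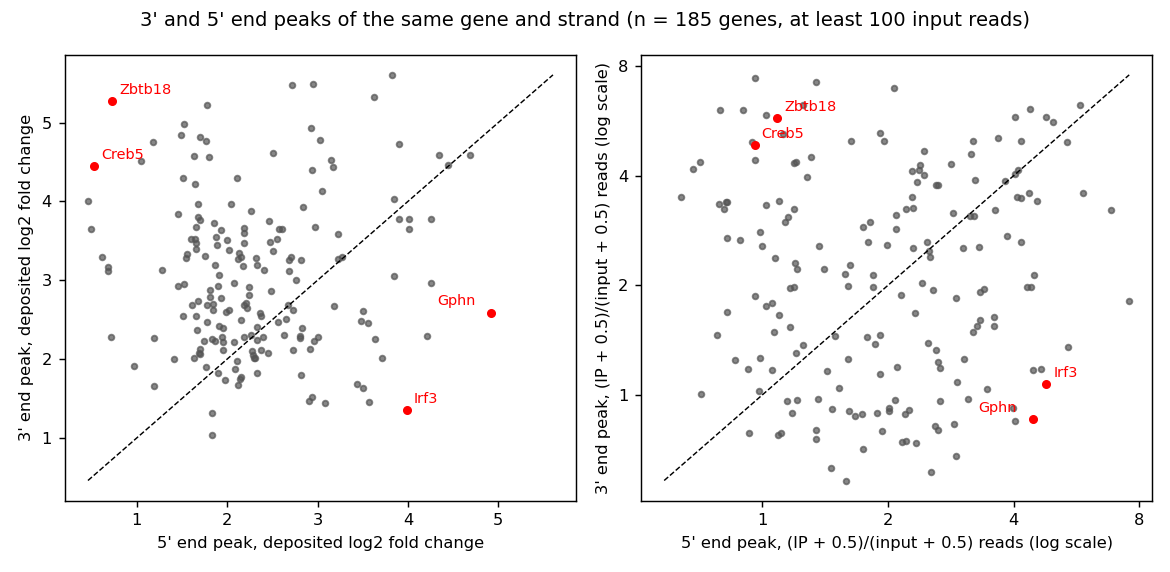
Strongest short 3' end peak (vertical axis) against strongest short 5' end peak (horizontal axis) of the same gene and strand, for 185 genes with at least 100 input reads in both peaks. The left panel uses the authors' log2 fold change and has 133 genes above the dashed line of equality. The right panel uses the read ratio on log axes and has 96 above it.

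The strand of a gene could be read from the RefSeq table of gene starts for 3478 of the 4335 peaks. Of these, 61 (1.75%, 95% interval 1.34 to 2.25) lay on the strand opposite to their gene. They are at the 3' end only by the strand of the peak, and lie near the start of the gene they overlap, 42 of them within 1000 bases of it. The share was 4.61% of interior peaks and 10.1% of 5' end peaks. The 61 peaks had a median ratio of 3.14 and a median offset of 1.33, and the 3417 peaks on the strand of their gene 1.94 and 1.85. Their median log2 enrichments in the authors' deposited table were 2.79 and 2.80. By IP reads the leading ones lay opposite to Morc2a (13045 IP and 2332 input reads), Fat4 (10211 and 3017), Thap4 (10096 and 6657), Mindy2 (9709 and 4486) and Atp6v1d (9144 and 4925). These 5 were chosen after the values were seen. For the remaining 857 peaks the strand of the gene was not checked. A stretch of a peak opposite to Synm, an intermediate filament gene, lies in a start window and is shown because it holds GGACT 2 times on the strand of the peak (plus, GRCm38.p6), again in capitals.
Synm, opposite strand, bases 67759726 to 67759755 of chromosome 7: tcggaggcccttGGACTggcgcaccgactg
Synm, opposite strand, bases 67759782 to 67759811 of chromosome 7: tcgcgcggctgtGGACTtgggccatcgcct
Of the start windows, 18.2% held the letters in the same 199 positions and strand, and 2.06% held them at least 2 times. This peak had 528 IP and 168 input reads.

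In the 22 peaks with at least 75 bases in a start window, 20 of them opposite to their gene, the offset was lower where the covered bases held more G and C. Spearman's correlation was -0.695 over these 22 peaks, whose G and C content ran from 39.5% to 81.0%. Over 196 peaks of all 3 places with such bases it was -0.541. By place, it was -0.682 over 50 interior peaks and weaker, -0.399, over 124 5' end peaks, all on the strand of their gene. These points share gene starts and libraries, few of them are 3' end peaks on the gene's own strand, and the part of base content in the difference between gene ends was not tested.

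By gene, the peaks were described after leaving out the 61 on the opposite strand, which left 3334 genes. They are 15.2% of all protein-coding genes and 33.7% of the 9898 that any peak of the table overlapped. The median log2 enrichment of a gene's strongest such peak was 2.95 in the authors' deposited table. Gene lists were set against these values without a test.

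Of the cell type markers, any peak overlapped 6 of 10 neural progenitor genes (Nes, Sox2, Pax6, Hes1, Notch1 and Prom1), 4 of 8 hypothalamic regional factors (Nkx2-1, Six3, Tbx3 and Lhx2) and 1 of 11 microglial, blood and vascular genes (Kdr). Neuron, astrocyte and oligodendrocyte markers were overlapped in 4 of 6, 3 of 5 and 5 of 6 genes. Over all protein-coding genes it was 9898 of 21900, and no difference of these small lists from that share was tested. A peak needs both RNA and the mark, so a marker without one may still be expressed. A short 3' end peak was found in 1 progenitor marker, the Notch effector Hes1, with 585 IP and 571 input reads and 1.90 in the authors' deposited table. Among neuron markers Elavl3, an RNA-binding protein, had 5739 IP and 2055 input reads and 3.62 in the authors' deposited table, and Map2 of the dendritic cytoskeleton had 11411 IP and 12359 input reads and 2.48. The astrocyte markers S100b (2.55) and Slc1a3 (2.27), a glutamate transporter, both lay under the median of all genes in the authors' deposited table. The transcription factor Olig1 of the oligodendrocyte lineage, with 20324 IP and 15771 input reads, stood at 2.13 in the authors' deposited table.

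Signalling genes with a short 3' end peak included ligands, receptors and effectors for Notch and for Wnt. No Hedgehog ligand had such a peak. Of 30 Notch genes 10 had a short 3' end peak. After Adam10, the receptor Notch2 was next, with 38396 IP and 6727 input reads and 4.14 in the authors' deposited table, then the receptor Notch4 at 4.01 and Rbpj, the DNA-binding partner of cleaved Notch, at 3.88. Of 44 Wnt genes 13 had one: Csnk1a1, a kinase of the beta-catenin destruction complex, had 3741 IP and 827 input reads and 4.78 in the authors' deposited table, Wls, which carries Wnt ligands to the cell surface, had 4.32, and the ligand Wnt4 had 3.88. Of 18 Hedgehog genes 8 had one, with the receptor Ptch1 at 4.76 (8982 IP and 1500 input reads), the transcription factors Gli3 and Gli2 at 4.26 and just under 4 (576 IP and 118 input reads in Gli2), and the signal transducer Smo at 3.33 in the authors' deposited table. These are 33.3% of Notch, 29.5% of Wnt and 44.4% of Hedgehog genes, and 50%, 43.3% and 61.5% of those that any peak overlapped. The median of the strongest peak per gene was 2.68 for Notch, 2.65 for Wnt and 3.13 for Hedgehog genes, beside 2.95 over all genes with such a peak, in the authors' deposited table.

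Of 39 genes of FGF, EGF and ERK signalling, the pathway driven by the growth factors of the medium, 14 had a short 3' end peak. The adaptor Grb2, which links receptors to Ras, had 4990 IP and 1103 input reads and 4.80 in the authors' deposited table. The receptor Erbb4 stood at 4.46 on 24 input reads, the docking protein Gab2 at 4.11 and the kinase Braf at 3.37 in the authors' deposited table. Of 32 BMP and TGF-beta genes 9 had one, led by the receptor Acvr1b with 4468 IP and 911 input reads and 4.53 in the authors' deposited table. The signal transducers Smad4 and Smad1 stood at 3.85 and 3.05 and the ligand Tgfb3 at 3.02 in the authors' deposited table. Both lists had medians close to or under that of all genes, 2.94 and 2.60 in the authors' deposited table, and shares of 43.8% and 33.3% of their overlapped genes.

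Cell cycle regulators had a short 3' end peak in 13 of 52 genes (25%). E2f3, a transcription factor of entry into S phase, had 19770 IP and 7638 input reads and 4.22 in the authors' deposited table, the mitotic checkpoint kinase Bub1 had 3.72, the replication helicase subunit Mcm6 3.67 and the cyclin Ccne1 3.09. Of 59 histone methylation and acetylation enzymes 18 had one (30.5%), led by the deacetylase Hdac3 with 10423 IP and 2021 input reads and 4.81 in the authors' deposited table. The methyltransferases Nsd2 and Dot1l stood at 4.05 and 3.97 and the demethylase Kdm5b at 3.99 in the authors' deposited table. Of 49 genes of mRNA decay and silencing 19 had one (38.8%). Tnrc6a and Tnrc6b, scaffolds of microRNA silencing, had 4.25 and 4.22, the Argonaute Ago4 3.92 and the deadenylase Cnot8 3.44 in the authors' deposited table. Of those 19 genes, 5 lay above the median of all genes with such a peak. The medians of these lists were 2.49 for cell cycle, 2.90 for histone-modifying and 2.69 for decay genes in the authors' deposited table, and the shares of overlapped genes 34.2%, 35.3% and 42.2%.

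Of the m6A machinery, 2 of 9 writer genes had a short 3' end peak, Virma, a scaffold of the writer complex (295 IP and 165 input reads, 3.47 in the authors' deposited table), and Mettl14. Of 12 readers and erasers 2 had one, Igf2bp2, which stabilises bound mRNA (68 IP and 46 input reads, 3.29), and the demethylase Alkbh5 (323 IP and 363 input reads, 2.15 in the authors' deposited table). Any peak overlapped 8 and 9 genes of these lists. Of 14 Sox factors 3 had one, with Sox6 at 2.81 and Sox11 at 2.64 in the authors' deposited table. Cytosolic ribosomal protein genes had a short 3' end peak in 8 of 81 (9.88%), and any peak overlapped 18, so the share of overlapped genes was 44.4%. Rpl17 led with 3421 IP and 855 input reads and 4.01 in the authors' deposited table, Rpl13a followed at 3.78 on 27 input reads, and Rpl39 and Rpl4 stood at 2.37 each, with 5256 IP and 6531 input reads in Rpl39. The treatment of reads that also match ribosomal pseudogenes was not found in those sources. Of 21 glycolysis and lactate genes 6 had one, with 8026 IP and 2999 input reads in the glucose transporter Slc2a1 and the hexokinases Hk2 and Hk1 at 2.79 and 2.37 in the authors' deposited table. Of 23 neuropeptide and energy balance genes the growth factor receptor Igf1r alone had one, at 3.14 in the authors' deposited table. The medians were 2.25 for ribosomal and 2.48 for glycolysis genes in the authors' deposited table.

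The limits of the rule cut through alike peaks. At 1000 bases, the longest peaks taken included those of Tmem43 (54028 IP and 8410 input reads, 4.27 in the authors' deposited table) and the dynein Dnah8 (4076 and 1999 reads, 2.74). The shortest left out were those of Net1, of 1004 bases (1096 and 462 reads, 2.90 in the authors' deposited table), and Zfp780b, of 1005 bases (6271 and 1242 reads, 4.70). At 90% of the span, Tmem223 and Eef1d lay just inside, at 3.08 and 2.54 in the authors' deposited table, and Sdf2l1 and Stox1 just outside, at 3.44 and 4.69. The Stox1 peak had 34 IP and 4 input reads.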

How the data were processed

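Values come from 1 deposited table of 21195 peaks. STAR 2.5.2a, Trimmomatic 0.32 and bcl2fastq 2.17.1.14 appear in the submitters' processing notes, with builds GRCm38.p6 and GRCh38.p13 and no step for any of them. Peaks were called with a program, from libraries and with a counter not given in the sources used here. Read counts as deposited are whole reads per peak, 1 pooled column for IP and 1 for input, per the file headers, so the depth of single libraries is unknown. The deposited log2 fold change and the deposited p-values were taken to compare IP with input. In all rows the deposited score was minus log2 of padj (tolerance 1e-06).

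Genes were assigned by any overlap with spans of the RefSeq table, and gene strands were read from its table of gene starts, with Python 3.11.15 and pandas 2.3.3. The assignment was tested on simulated peaks. Medians and differences of read ratios used a pseudocount of 0.5, and ratios of single peaks used none. Intervals are exact Clopper-Pearson 95% intervals for counting error only (SciPy 1.17.1), and without molecular identifiers PCR copies are counted as separate reads. Peaks are not replicates, so no test was made.

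Named peaks follow a fixed rule: the 10 highest and 6 lowest log2 fold changes with at least 100 input reads, the 6 highest without that minimum, the 6 with most IP and 3 with most input reads, the genes with most peaks, up to 4 genes per list with at least 20 input reads, the 5 largest differences between gene ends each way, peaks at the limits, and Mettl14. Members and lists were chosen with earlier results of these data known. The planned counts of motifs over all peaks and of transcript regions were not run, for want of a genome and exons in the analysis. Of the peaks this rule names, 2 are not reported here.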

Additional observations from a re-analysis of the deposited data

How the results depend on the processing

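No paired analysis was possible because the columns carry no replicate number. Leaving out single replicates was not possible for the same reason. The number of peaks (3126 to 5259 over 9 alternatives) stayed within 1.5 times of 4335. The median log2 fold change was 2.71 with a length limit of 500 bases, 2.89 with 2000 bases, 2.64 with at least 100 input reads, 2.96 with adjusted p under 1e-10 and 2.95 for the strongest peak of each gene. The median read ratio was 1.81, 2.09 and 1.76 under the first 3 of these, and the median input was 1901, 1175 and 2145 reads per kb. The other alternatives gave medians of 2.80 to 2.83, 1.96 to 2.01 and 1360 to 1479. The median 3' minus 5' difference within genes was 0.41 to 0.60 under 9 alternatives and turned to -0.035 with the read ratio in place of the deposited value, against 0.49 with all strands. With the read ratio, at least 100 input reads and no opposite-strand peaks it was 0.063. The alternatives that leave out opposite-strand peaks or use the read ratio were added after the data were seen. Depth limits single peaks: 897 of 4335 had under 100 input reads.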
